A study of Mus musculus with 6 samples.

Results

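The acute phase genes described here are 10 liver genes for secreted plasma proteins: the pentraxins Apcs and Crp, the serum amyloid A genes Saa1, Saa2, Saa3 and Saa4, the orosomucoids Orm1 and Orm2, haptoglobin (Hp) and lipocalin 2 (Lcn2). They were chosen by name, with earlier results of these data known. Every probe set annotated to 1 of these symbols alone was taken. This gave 12 probe sets out of 22626 on the array, for 10 of the 12393 genes it names. All 10 genes had a probe set, and 0 probe sets annotated to several genes named any of them. Liver RNA came from chromogranin A knockout mice (3 arrays) and wild-type mice (3 arrays), all male and aged 12 weeks. Both strains are credited in the labels to Mahapatra and colleagues. The sources used here do not name the genetic background, so genotype and background cannot be told apart. Chromogranin A (Chga) is a granule protein and prohormone of neuroendocrine cells.

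The acute phase response is the change in liver output that follows infection or injury. Interleukin 6 acts through the receptor subunit gp130 and the transcription factor STAT3. Interleukin 1 and tumour necrosis factor act through NF-kB and C/EBP factors. These signals raise transcription of many of these genes in hepatocytes, but not of Saa4, which is expressed in liver without induction. Which pentraxin responds depends on the species: in mice it is serum amyloid P, the product of Apcs, that rises strongly, while C-reactive protein, the product of Crp, is the strong responder in humans and a weak one in mice.

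Values are probe set intensities in arbitrary units, and the deposited arrays share 1 overall level. Different probe sets bind their targets differently, so intensities are compared between arrays for 1 probe set and not between genes. Over the kept probe sets, which are not independent, Pearson's r of 2 arrays was between 0.964 and 0.974 inside a group, against values between 0.960 and 0.967 for a knockout with a wild-type array. Chga itself was dim, at 61.5, 44.5 and 231 in knockout and 167, 185 and 42.5 in wild type, and does not check the labels. Of 10 hepatocyte markers, 9 were on the array, and all 9 lay above background on every array and at or above the 98.8th percentile of signal. The background level of an array was the 95th percentile of 27 bacterial control probe sets, between 151 and 322.

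Changes are knockout minus wild type on the scale log2(intensity + 16), from 1 limma fit over the 13576 probe sets in the upper 60% by mean signal. A probe set was called at a Benjamini-Hochberg adjusted p under 0.05 over all of them. Of the 12 probe sets, 11 were kept, for 9 genes, and the Lcn2 probe set was removed as dim. In knockout liver 1 of the 10 genes was called, Apcs, which fell, where 0.376% of all kept probe sets were called and 0.184% were called as lower. Because the 10 genes were chosen with earlier results of these data known, this comparison is not a test of the group. The other 10 kept probe sets were not called. The median change of the 11 was 0.039, beside -0.018 over all kept probe sets. At an unadjusted p under 0.05 there were 3 of the 11, for Apcs, Saa3 and Saa4, beside 9.97% of all kept probe sets. 

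**Figure D1:**
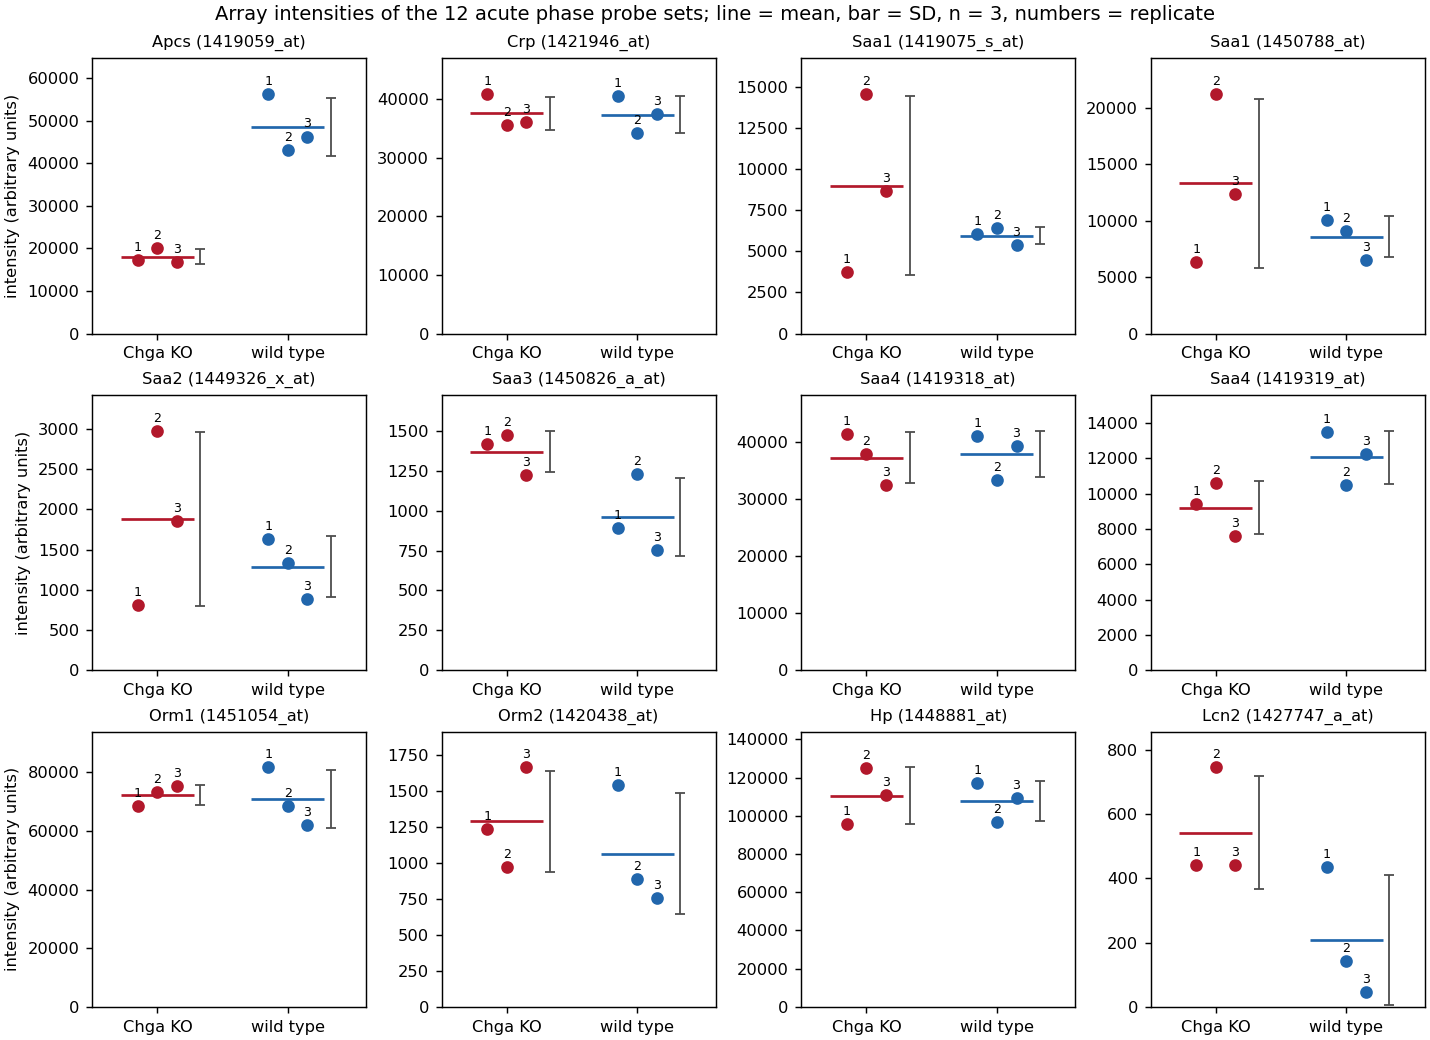
Intensity (arbitrary units, linear axes from 0) of each of the 12 acute phase probe sets on the 3 Chga knockout arrays (red, left) and the 3 wild-type arrays (blue, right), with the mean as a line, the SD as a bar and the replicate number at each point. The Apcs groups are far apart, at 18013 against 48520 on average, the knockout arrays of Saa1 and Saa2 are widely spread, and most other groups overlap.

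Apcs encodes serum amyloid P, a pentameric lectin that binds amyloid fibrils, bacterial surfaces and chromatin and that hepatocytes secrete. Its probe set read 17198, 20015 and 16825 in knockout livers, against 56237, 43068 and 46256 in wild-type livers. The groups did not overlap, as was so for 15.6% of all kept probe sets, and the lowest wild-type array was 2.15 times the highest knockout array. The means were 18013 ± 1744 in knockout and 48520 ± 6870 in wild type (SD, n = 3 each). The log2 change was -1.42 ± 0.12 (SE), with a 95% interval of -1.68 to -1.17, which is 2.68-fold lower in knockout with an interval of 2.24-fold to 3.21-fold (limma, adjusted p = 0.000746). In bulk liver, fewer cells of a type and less RNA per cell cannot be told apart. The 9 hepatocyte markers all had small positive changes, between 0.073 and 0.19 with a median of 0.11 (0.0044 after quantile normalization), and 0 of them were called by limma or had an unadjusted p under 0.05 by the brightest probe set. The call was lost when the fit did not model the spread as a trend with signal (adjusted p = 0.0614), under which 7 probe sets of the whole table were called. It held without each array in turn, with changes from -1.51 to -1.31.

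Apcs differed in its place in the order of signals on each array, which restates the same values. Counting from the brightest of 22626 probe sets, it stood at places 1132, 997 and 1158 on the knockout arrays, against 283, 418 and 383 on the wild-type arrays. In the mean of all arrays it was at place 668, the 97.1st percentile. Of the 668 kept probe sets at least as bright, Apcs included, 6 were called, and the Apcs change was the 2nd in size of these 668. The other 5 calls were smaller. H2-K1, a class I histocompatibility gene, had -0.91 ± 0.15 and Fdx1, a mitochondrial electron carrier, -0.48 ± 0.08 on the log2 scale. The chaperone gene Hspa8 had 0.46 ± 0.08, the glutathione transferase gene Gsta3 0.53 ± 0.09 and Pebp1, a kinase inhibitor gene, 0.65 ± 0.10 (limma, adjusted p between 0.0198 and 0.0413). Each value is of a single probe set. Those of H2-K1, Hspa8 and Pebp1 carry the suffix _x_at, which Affymetrix uses for probes shared among transcripts. Another Pebp1 probe set among these 668 had 0.42 and was not called. Over all kept probe sets Apcs had the 2nd smallest p.

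**Figure D2:**
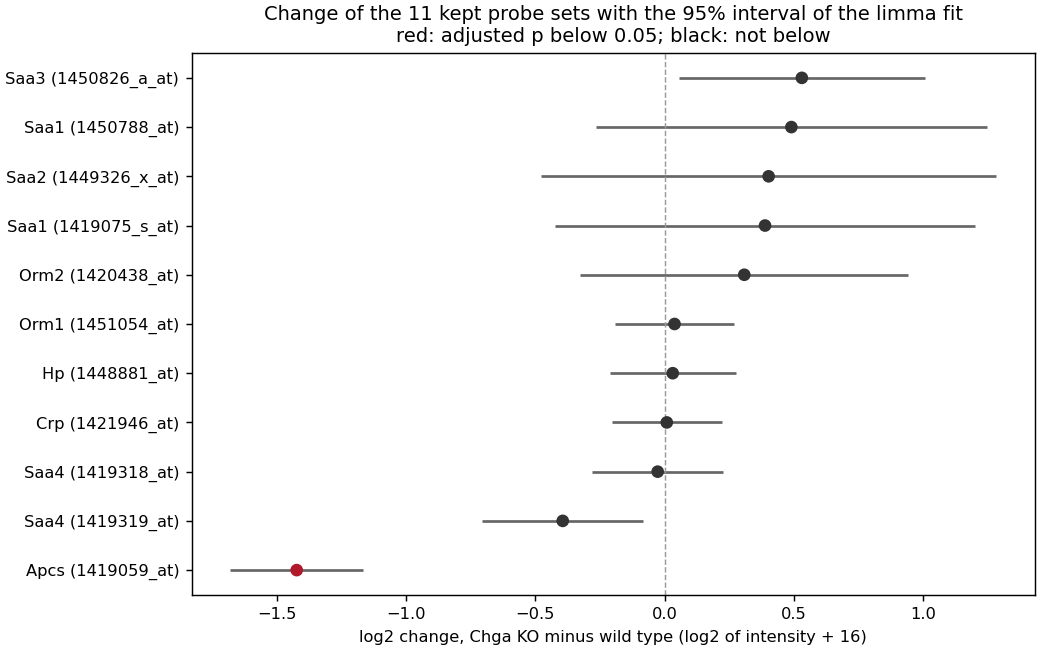
Log2 change (Chga knockout minus wild type, n = 3 each) of the 11 kept acute phase probe sets, with the 95% interval of the limma fit as a line. Apcs (red) lies at -1.42 with an adjusted p under 0.05, Crp, Hp, Orm1 and the brighter Saa4 probe set lie between -0.026 and 0.039 with narrow intervals, and the Saa1 and Saa2 intervals are wide.

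The promoter of Apcs is shown because Apcs is the only one of the 10 genes that was called. The sequence is from RefSeq, build GRCm38.p6, minus strand, chr1:172895005-172895304, and runs from 250 bases before to 50 bases after the transcription start, 5′ to 3′. Capitals mark a match to TTCNNNGAA, the core motif of STAT factors, at bases -244 to -236 from the start.
Apcs: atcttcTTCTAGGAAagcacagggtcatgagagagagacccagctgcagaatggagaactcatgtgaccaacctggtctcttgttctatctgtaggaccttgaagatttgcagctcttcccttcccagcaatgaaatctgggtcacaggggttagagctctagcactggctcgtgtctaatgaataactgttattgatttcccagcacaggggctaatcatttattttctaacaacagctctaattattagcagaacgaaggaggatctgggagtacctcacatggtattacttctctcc
This motif, searched on both strands, was in 8.30% of 32851 promoter windows of the same length. Of the 8 acute phase genes with a window, Apcs alone had it. Neither the HNF1 half-site GTTAAT, found in 7.10% of windows, nor the NF-kB consensus, found in 8.46%, was in any of the 8 windows. A match in letters is a description and not a measured binding site.

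Crp, the other short pentraxin and a ligand of phosphocholine on damaged membranes and bacteria, lies near Apcs on chromosome 1. Its probe set read 40854, 35640 and 36120 in knockout livers, against 40444, 34172 and 37366 in wild-type livers. The ranges nearly coincided. The log2 change was 0.0088 ± 0.096 (adjusted p = 0.988), with a 95% interval of -0.20 to 0.22, or 0.868-fold to 1.17-fold, which does not reach the change of Apcs. The log2 difference between Apcs and Crp within an array was -1.25, -0.83 and -1.10 in knockout, against 0.48, 0.33 and 0.31 in wild type. This within-array difference was lower on all 3 knockout arrays, by 1.43 in the mean (two-sided exact permutation p = 0.1, the smallest that 3 against 3 arrays allow, and 0.15 after Benjamini-Hochberg over the 3 pairs compared). It restates the values of both probe sets given above and is no separate support for the Apcs change.

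The genes around the pentraxin pair were read in the order of the RefSeq gene table. The 10 nearest kept genes on each side of Apcs and of Crp came to 20 genes besides the pair. Of these 20, 0 were called by limma, with a median change of 0.081 and a smallest adjusted p of 0.125, that of Kmo, a kynurenine hydroxylase (0.40 ± 0.09). The changes of the 20 ran from -0.66 for Fmn2 to 1.18 for Opn3, neither of them called. Genes between these places whose probe sets were too dim to be kept are not covered.

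The 5 genes whose signal over the 6 arrays was most like that of Apcs were Gch1, Plekha3, Fdx1, Cpt1a and Stat3, with Pearson's r between 0.987 and 0.995. These values describe 6 arrays in 2 groups, share each array's scaling, mainly carry the difference between the groups and were picked as the highest of all named genes. Stat3 read 5260, 5520 and 5477 in knockout livers, against 7880, 7198 and 6958 in wild-type livers, so that its groups did not overlap. Its log2 change was -0.44 ± 0.11 and did not pass over all probe sets (adjusted p = 0.141), and its 2nd kept probe set had -0.39. Of the 5, Fdx1 alone was called.

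**Figure D3:**
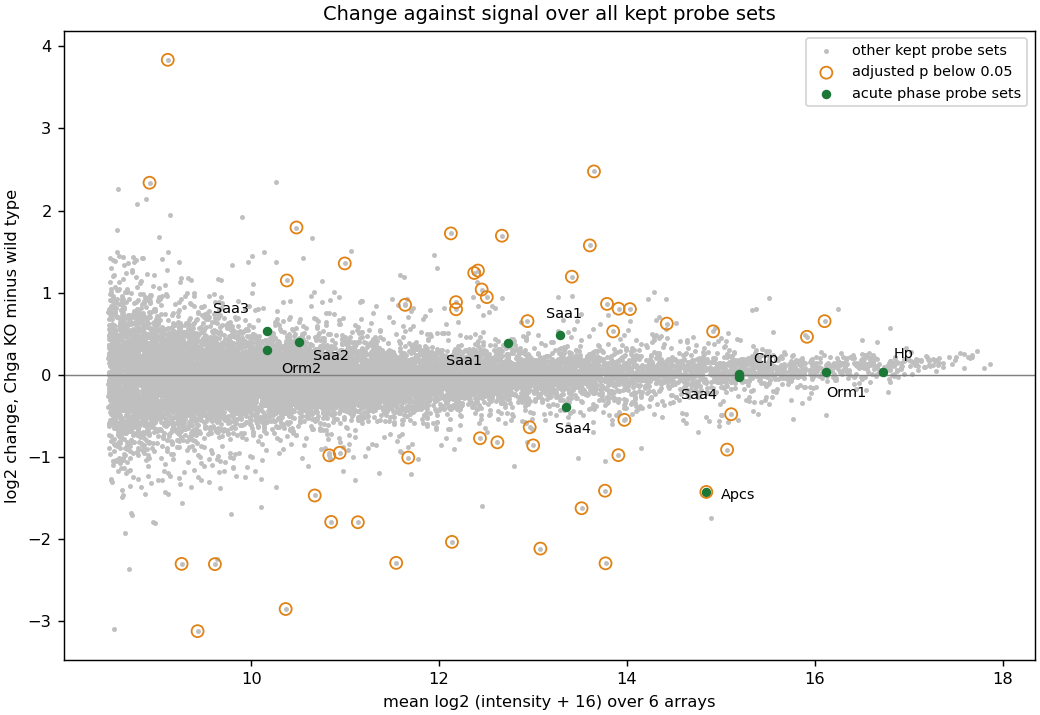
Log2 change (Chga knockout minus wild type) against mean log2 signal over 6 arrays for the 13576 kept probe sets (grey), with the 51 called ones ringed in orange and the 11 acute phase probe sets in green. Apcs, at -1.42, is the one ringed acute phase probe set, and the other 10 are not ringed.

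The serum amyloid A genes lie side by side on chromosome 7. Saa1 and Saa2 encode apolipoproteins that replace part of the apolipoprotein A1 of high density lipoprotein in the acute phase, Saa3 is made by macrophages and fat as well as liver, and Saa4 is expressed in liver without induction. Saa1 and Saa2 are near-identical copies, and which of them each probe set measures is uncertain. Of the 2 probe sets annotated to Saa1, the dimmer is built on a transcript that the RefSeq gene table gives to Saa2. The identifiers of that probe set and of the Saa2 probe set carry the suffixes _s_at and _x_at, which Affymetrix uses for probes shared among transcripts.

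The likeness of the pair extends to the promoters, shown because the probe sets of the 2 genes moved together from mouse to mouse. The windows, from RefSeq build GRCm38.p6, are chr7:46742931-46743230 on the minus strand for Saa1 and chr7:46751583-46751882 on the plus strand for Saa2. They are aligned over 300 columns, of which 95.7% are identical, with 12 mismatches and 1 gap. Capitals mark the bases that differ between the pair, including the extra base of Saa2.
Saa1: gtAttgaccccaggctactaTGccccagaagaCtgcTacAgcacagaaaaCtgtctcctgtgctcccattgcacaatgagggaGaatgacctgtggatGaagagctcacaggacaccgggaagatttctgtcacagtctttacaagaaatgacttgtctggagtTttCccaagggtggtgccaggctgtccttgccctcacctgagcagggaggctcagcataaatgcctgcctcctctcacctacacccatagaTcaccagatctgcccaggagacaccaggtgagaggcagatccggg
Saa2: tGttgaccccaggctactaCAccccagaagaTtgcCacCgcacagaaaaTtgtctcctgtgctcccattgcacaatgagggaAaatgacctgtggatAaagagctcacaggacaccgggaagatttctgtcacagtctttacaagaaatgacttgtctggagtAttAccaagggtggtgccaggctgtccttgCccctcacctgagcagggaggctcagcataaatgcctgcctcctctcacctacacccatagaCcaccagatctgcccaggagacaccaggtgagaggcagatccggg
Both windows hold the C/EBP motif TTNNGCAAT on the opposite strand, at bases -183 to -175 in Saa1 and -184 to -176 in Saa2, in a stretch with no difference. The motif was in 2.18% of all windows, and of the 8 genes with a window only these 2 had it.

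Saa1 and Saa2 varied more between the knockout mice than between the wild-type mice. The brighter Saa1 probe set read 6341, 21228 and 12344 in knockout livers, against 10069, 9061 and 6552 in wild-type livers. Knockout replicate 1 was below all wild-type arrays and knockout replicates 2 and 3 were above all of them. Its highest knockout array was 3.35 times the lowest, against 1.54 times in wild type. The dimmer Saa1 probe set read 3719, 14549 and 8666 in knockout livers, against 6070, 6410 and 5362 in wild-type livers. The Saa2 probe set read 811, 2980 and 1861 in knockout livers, against 1637, 1336 and 884 in wild-type livers. All 3 probe sets put the knockout mice in the same order, with replicate 2 highest and replicate 1 lowest.

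For these 3 probe sets the group means did not differ beyond that spread. The log2 changes were 0.49 ± 0.34 and 0.39 ± 0.37 for Saa1 and 0.40 ± 0.40 for Saa2 (limma, adjusted p = 0.676, 0.773 and 0.782). As folds, the 95% intervals ran from 0.832 to 2.37, from 0.745 to 2.30 and from 0.718 to 2.44, which hold a 2-fold higher level as well as lower ones. Single knockout arrays decided the size of the change. Without knockout replicate 2 the changes were 0.071 and -0.063 for Saa1 and -0.019 for Saa2. Without knockout replicate 1 they were 0.94 and 0.92 for Saa1 and 0.91 for Saa2, not called either (limma, adjusted p = 0.130, 0.0933 and 0.235). The SD of the log2 values was 0.87, 0.99 and 0.94 in knockout, against 0.32, 0.13 and 0.45 in wild type. Among all kept probe sets these stood at percentiles 97.3, 98.0 and 97.7 in knockout, and 76.4, 33.3 and 87.8 in wild type. Pooled over both groups, the median SD of all kept probe sets was 0.22. In spread over both groups the 3 probe sets stood between the 95.1st and the 96.5th percentile of all kept probe sets. The difference in spread between the groups was not tested.

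**Figure D4:**
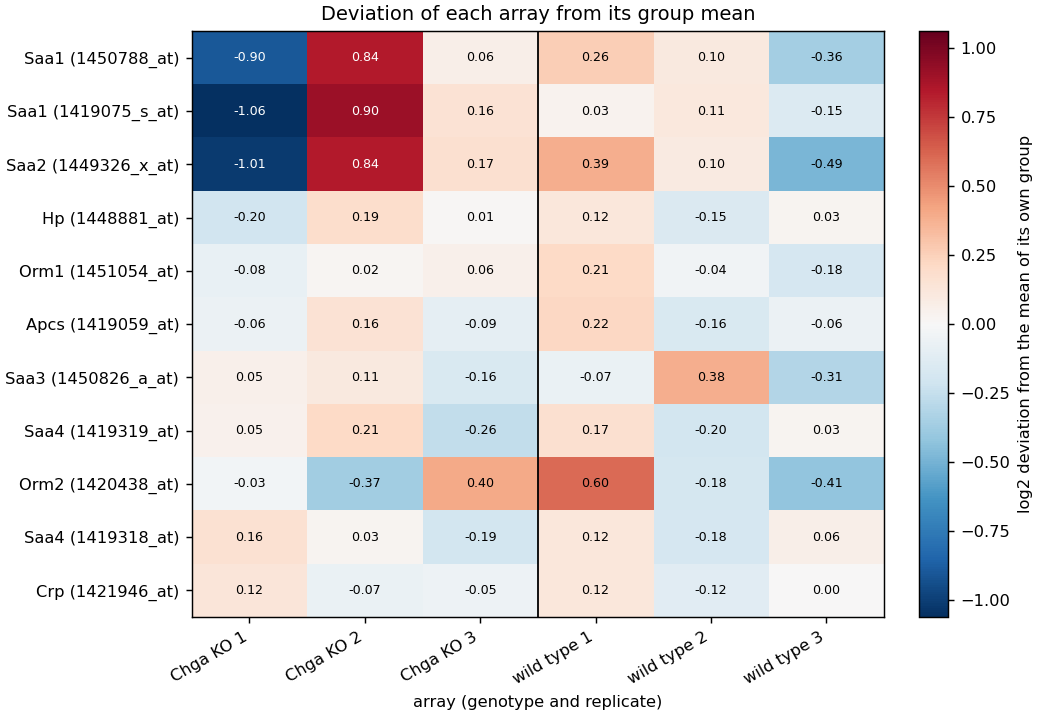
Log2 deviation of each array from the mean of its own group (colour and number) for the 11 kept acute phase probe sets. The 3 Saa1 and Saa2 probe sets lie between -1.06 and -0.90 in Chga knockout replicate 1 and between 0.84 and 0.90 in replicate 2, while Apcs runs from -0.16 to 0.22 and Crp from -0.12 to 0.12.

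Taken as deviations from the group means over 6 arrays, the Saa1 and Saa2 probe sets correlated with each other between 0.941 and 0.991. They may share probes, and knockout replicates 1 and 2 lie far apart in all 3. Against the brighter Saa1 probe set, Hp had an r of 0.78, Apcs 0.54 and Orm1 0.53, while Crp had -0.53, Saa4 -0.31 and 0.24, Saa3 0.24 and Orm2 0.015. These are descriptions over 6 arrays with no test. The 5 other genes with the most similar deviations were Bid, Aldh2, Gss, Cd47 and Cert1 (r between 0.992 and 0.995), picked as the highest of all named genes, and 0 of the 5 were called between the groups. The summed signal of 9 Kupffer cell and macrophage markers was 17000, 21978 and 27015 on the knockout arrays, against 27727, 27941 and 20678 on the wild-type arrays. This sum was lowest in knockout replicate 1, as Saa1 was, but not highest in replicate 2. Csf1r, the brightest marker, made up its largest part, with 5763, 7242 and 11299 on the knockout arrays. Not all markers had this order, as Adgre1 was highest in knockout replicate 1 (2206, 1965 and 1440). Of the 9, 7 were above background on every array and Marco on none. The summed signal of the 9 hepatocyte markers was 1123761, 1268916 and 1205903 on the knockout arrays, the order of Saa1 and Hp there. On the wild-type arrays it was 1102744, 1049386 and 1145610, not the order of Saa1. The order shared by Saa1 and Hp in knockout is therefore not particular to acute phase genes. The part of either sum in the Saa values was not tested.

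Saa3 did not share this order. Its probe set read 1416, 1473 and 1223 in knockout livers, against 894, 1233 and 754 in wild-type livers. Knockout replicate 3 lay just below wild-type replicate 2, and the groups otherwise separated. The log2 change was 0.53 ± 0.22, with an interval of 0.055 to 1.01, and did not pass over all probe sets (unadjusted p = 0.0320, adjusted p = 0.449). Markers of macrophages, which make Saa3, were not called in either direction: of 8 kept ones, 0 were called by limma and 0 had an unadjusted p under 0.05. Of these 8, 7 had a negative change, with a median of -0.20. Cd68, a lysosomal protein of macrophages, read 403, 49.3 and 507 in knockout livers, against 708, 652 and 530 in wild-type livers, with a change of -1.40 ± 0.67 that did not pass (adjusted p = 0.537). The value on knockout replicate 2 lay below the background level of that array, 322.

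The 2 probe sets of Saa4 gave different values. The brighter one read 41342, 37853 and 32368 in knockout livers, against 40996, 33265 and 39246 in wild-type livers, a log2 change of -0.026 ± 0.115 (adjusted p = 0.962). The dimmer one read 9424, 10577 and 7602 in knockout livers, against 13468, 10467 and 12215 in wild-type livers. There the knockout arrays were mostly lower, but replicate 2 lay above wild-type replicate 2. The log2 change of the dimmer probe set was -0.39 ± 0.14, with an interval of -0.71 to -0.08 (unadjusted p = 0.0181, adjusted p = 0.375). The log2 difference between the 2 probe sets on an array, dimmer minus brighter, was -2.13, -1.84 and -2.09 in knockout, against -1.60, -1.67 and -1.68 in wild type (two-sided exact permutation p = 0.1, the smallest possible, and 0.15 after adjustment). Both probe sets are annotated to the same transcript, and which of them follows the level of Saa4 was not tested.

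Orm1 and Orm2 encode orosomucoid, or alpha-1-acid glycoprotein, a lipocalin that carries drugs and lipids in plasma. Orm1 read 68469, 73327 and 75182 in knockout livers, against 81642, 68599 and 62177 in wild-type livers, and the knockout values lay within the wild-type range. Its log2 change was 0.039 ± 0.104 with an interval of -0.19 to 0.27 (adjusted p = 0.936). Orm2 read 1237, 970 and 1664 in knockout livers, against 1543, 891 and 757 in wild-type livers. The groups overlapped widely, with a log2 change of 0.31 ± 0.29 and an interval of -0.33 to 0.94 (adjusted p = 0.769). The Orm2 change was 0.11 without knockout replicate 3, 0.10 without wild-type replicate 3 and 0.61 without wild-type replicate 1, and was called in none of these fits. The log2 difference of Orm2 from Orm1 within an array was 0.27 higher in the knockout mean (two-sided exact permutation p = 0.4, and 0.4 after adjustment). Orm2 lies beside Orm3 on chromosome 4, and their promoter windows are 87.7% identical, and whether the array probes tell the Orm genes apart was not tested.

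Haptoglobin binds free haemoglobin in plasma and, in humans, hands it to the macrophage receptor CD163. Its probe set was among the brightest, at place 85 of 22626, with 95635, 125233 and 110679 in knockout livers, against 117112, 96796 and 109453 in wild-type livers. The ranges overlapped almost fully. The log2 change was 0.032 ± 0.110 and the interval -0.21 to 0.27, or 0.864-fold to 1.21-fold (adjusted p = 0.953). Cd163 itself had a change of -0.28 ± 0.26 (adjusted p = 0.776).

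Lcn2, a lipocalin that withholds iron from bacteria by binding their siderophores, was dim and outside the tested probe sets, at the 36.3rd percentile of signal. It read 441, 745 and 441 in knockout livers, against 435, 144 and 46.2 in wild-type livers. The knockout arrays were all higher, but knockout replicates 1 and 3 were barely above wild-type replicate 1. All 3 knockout arrays and 1 of 3 wild-type arrays were above the background level. With every probe set in the fit the log2 change was 1.72 ± 0.69 and did not pass (limma, unadjusted p = 0.0301, adjusted p = 0.569). The fit without wild-type replicate 3, the lowest array for Lcn2, was not this unfiltered fit. There the filter on mean signal was applied to the remaining arrays, and the Lcn2 probe set was kept. The log2 change in that fit was 1.01 ± 0.52 (limma, adjusted p = 0.627). Its adjusted p is over a different set of probe sets, so the fits are not directly comparable. Neutrophils also make Lcn2. The summed signal of 10 neutrophil markers was 3225, 3058 and 3740 on the knockout arrays, against 3289, 2580 and 3292 on the wild-type arrays, with 2 of the 10 above background on every array and Camp on none. Their part in the Lcn2 values was not tested.

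Other genes of the response were read from lists of proteins that rise in it, proteins that fall in it, the signals that drive it and the receptors of its products. In none of these lists was a gene called by limma, by any kept probe set. The other counts, medians and named values are of the brightest kept probe set of each gene, unless another is named. Of 17 other kept genes of positive acute phase proteins, 0 were called, 4 had an unadjusted p under 0.05 and the median change was -0.13. The smallest p belonged to Mbl2, a mannose-binding lectin that starts complement, at 48012, 55496 and 60261 in knockout livers, against 26786, 40274 and 28719 in wild-type livers. Its groups did not overlap, and its log2 change of 0.79 ± 0.15 missed the threshold narrowly (adjusted p = 0.0526). The next by brightest probe set were the zinc importer Slc39a14 (-0.34 ± 0.11), the glycoprotein Lrg1 (-0.59 ± 0.22) and the hyaluronan-binding Itih3 (-0.30 ± 0.13), with adjusted p-values of 0.306, 0.408 and 0.496. A dimmer probe set of Steap4, a metalloreductase gene, had -0.57 ± 0.17 (adjusted p = 0.249). The bright fibrinogen genes Fga, Fgb and Fgg had 0.17 ± 0.10, 0.045 ± 0.097 and 0.066 ± 0.096. The iron hormone gene Hamp had 0.075 ± 0.124.

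Genes of negative acute phase proteins, whose output falls in the response, had 0 of 7 called and 0 at an unadjusted p under 0.05. Dimmer probe sets of Apoa1, the main apolipoprotein of high density lipoprotein, had 0.26 ± 0.10 and 0.24 ± 0.09 at unadjusted p-values of 0.0250 and 0.0232 (limma, adjusted p = 0.421 and 0.410). The median change of the list was 0.079, became 0.15 with the mean of all kept probe sets of a gene and turned to -0.068 after quantile normalization. Albumin (Alb) had 0.19 ± 0.09, the retinol carrier Rbp4 0.15 ± 0.08, the corticosteroid-binding Serpina6 -0.22 ± 0.11 and the fetuin Fetub -0.27 ± 0.13 (limma, adjusted p between 0.518 and 0.588). These are small changes in genes with bright signals, and their signs differed.

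Of 16 kept cytokine, receptor and transcription factor genes, 0 were called and 2 had an unadjusted p under 0.05, Stat3 and the tumour necrosis factor receptor Tnfrsf1a (0.40 ± 0.15, adjusted p = 0.384). The median of this list was -0.093. The NF-kB inhibitor Nfkbia had -0.22 ± 0.11 and the kinase Jak1 -0.20 ± 0.11 (adjusted p = 0.562 and 0.589). The factors Cebpa, Cebpb and Cebpd had -0.0096 ± 0.0879, -0.18 ± 0.14 and 0.036 ± 0.188, none of them called. The cytokine genes Il6, Il1a and Tnf were too dim to be kept. Il1b was kept, with a change of 0.17 ± 0.24 (limma, adjusted p = 0.855). Among 11 kept receptors and binding partners, 0 were called and 0 had an unadjusted p under 0.05, with a median of -0.19. The complement regulator C4bp had 0.19 ± 0.09, the lipoprotein receptor Scarb1, to which serum amyloid A binds, -0.22 ± 0.11, the complement subunit C1qc -0.37 ± 0.21 and the endocytic receptor Lrp1 -0.19 ± 0.12 (adjusted p between 0.506 and 0.641). A dimmer probe set of Scarb1 had -0.30 ± 0.11 (unadjusted p = 0.0230, adjusted p = 0.408).

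**Figure D5:**
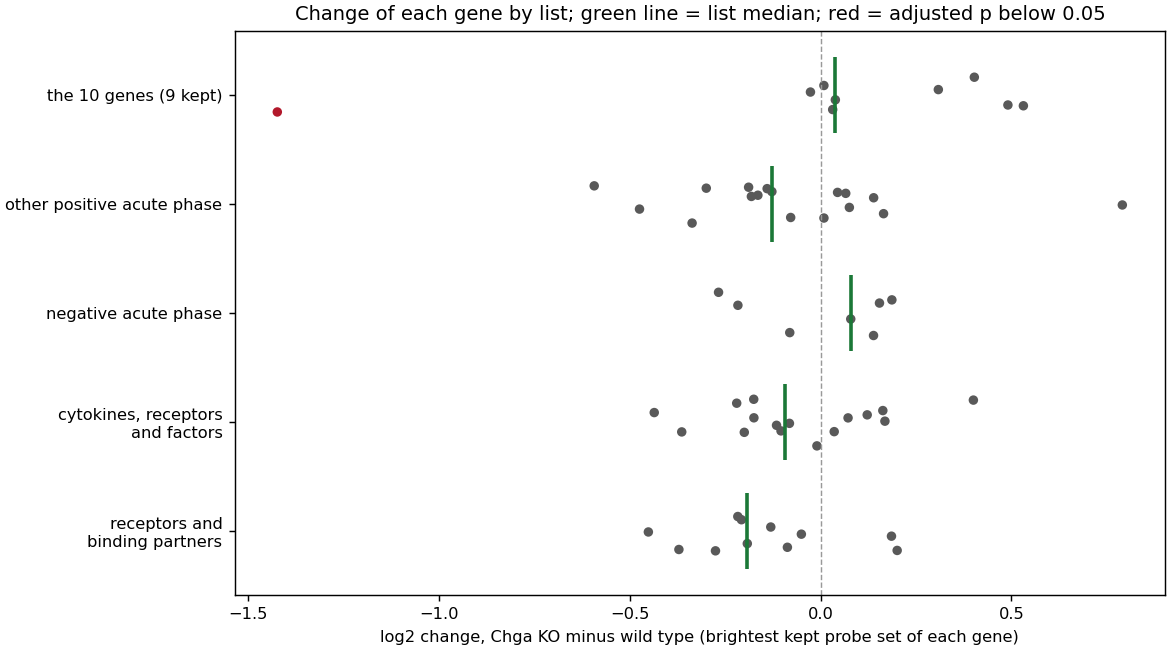
Log2 change (Chga knockout minus wild type) of the kept genes of each list, 1 point a gene taken from its brightest probe set, with the list median as a green line and called genes in red. Apcs at -1.42 is the only called gene, and Mbl2 at 0.79 lies furthest to the right.

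Outside the 10 genes, the wider pentraxin and lipocalin families had 0 of 5 kept genes called and 0 at an unadjusted p under 0.05. The neuronal pentraxin Nptx1 had 0.37 ± 0.26, and the lipocalin-fold genes C8g and Ambp 0.19 ± 0.11 and 0.20 ± 0.13 (limma, adjusted p between 0.622 and 0.684). The long pentraxin Ptx3 was too dim to be kept, with 0 knockout and 0 wild-type arrays above background.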

How the data were processed

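Liver RNA of 6 mice was measured on Affymetrix arrays, 1 array per mouse. GCOS 1.2 is the software named in the submitters' processing notes. The values the authors deposited are linear intensities per probe set on 1 scale, as trimmed means (2% off both tails) of 2501.32 to 2501.42 show, with the scaling rule not given. Of 22690 probe sets, 64 controls were left out. Genes come from the platform annotation, with symbols updated through the RefSeq table of GRCm38.p6, whose sequences and gene order were also used. Motif search and alignment used scripts and Biopython 1.88.

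The test was limma 3.58.1 under R 4.3.3 on log2(intensity + 16): lmFit over all 6 arrays, no covariates, then eBayes with a trend in signal. In 5 simulated runs over 13576 probe sets for knockout minus wild type, values were drawn independently for each probe set. They were normal on the log2 scale, with its own mean and within-group SD, and a few random probe sets were changed. There 50.2% of probe sets changed 2-fold and 84.2% of those changed 4-fold were called, and 4.14% of calls were false. Real probe sets are not independent, so these shares describe the simulated data and are not the error rate of the calls reported here. The number of arrays limits the precision. The labels do not state how the mice were chosen or batched, and p-values reflect the spread between arrays alone.

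The members and lists were chosen with earlier results of these data known. Named were all 10 genes, up to 4 genes with the smallest p of each other list, the 5 genes most like Apcs and Saa1, and called neighbours. Fibrinogen genes, Hamp, Cd163, the C/EBP factors, Cd68, Steap4, Apoa1, Il1b, Socs3, Il1rn and Fgl1 were named after their values were seen. So were genes named as dim and the neighbours with extreme changes. The alternatives were other pseudocounts, normalizations and filters, no intensity trend, array weights, a replicate block and each array left out.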

Additional observations from a re-analysis of the deposited data

How the results depend on the processing

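Apcs kept its direction under all 16 alternatives and its call under 15, with changes from -1.51 to -1.31 without each array in turn and from -1.45 to -1.39 under the other settings. The exception was eBayes without the intensity trend, where the change stayed at -1.42 with an adjusted p of 0.0614 and 0 of the 10 genes were called. With the replicate number as a block its adjusted p was 0.00502. Over the kept probe sets as a whole, same-numbered arrays did not deviate together (correlations between -0.065 and -0.059). Whether they share more than a number is not stated in the labels and was not tested. The 51 calls of the whole table became 85 with the largest pseudocount tried, 82 with array weights, 27 with the replicate block, 7 without the intensity trend, and from 21 to 57 without each array in turn, the lowest without wild-type replicate 3 and 23 without wild-type replicate 1. The other 10 kept probe sets of the acute phase genes were called under none of the alternatives. Signs of several turned. After quantile normalization Crp was at -0.021, Orm1 at -0.044 and Hp at -0.085, and with array weights Crp was at -0.0081. Without 1 array, the brighter Saa1 probe set ran from 0.071 to 0.94 and Orm2 from 0.10 to 0.61, with no turn of sign. Crp ran from -0.054 to 0.068, the dimmer Saa1 probe set from -0.063 to 0.92, Saa2 from -0.019 to 0.91, Hp from -0.063 to 0.13, the brighter Saa4 probe set from -0.12 to 0.070 and Orm1 from -0.050 to 0.15. The cause of these turns was not tested. After quantile normalization, an alternative for list medians chosen after seeing the data, the median of the acute phase genes turned to -0.021 and that of the negative acute phase genes to -0.068. With the mean of all kept probe sets of a gene, list medians became 0.15 for negative acute phase genes, -0.078 for other positive ones and -0.041 for cytokines, receptors and factors. Lcn2, Il6 and Tnf lie near the background of these arrays, which limits what can be said of them.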

Other observations

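Some genes of the response outside the 10 varied widely between mice of a group. Socs3, a feedback inhibitor of the interleukin 6 signal, read 1110, 4561 and 1126 in knockout livers, against 1240, 1305 and 7544 in wild-type livers by its brightest probe set. Knockout replicate 2, high for Socs3, was also the highest for Saa1. Wild-type replicate 3, the highest array for Socs3 by that probe set, was the lowest wild-type array for Saa1. The log2 change of Socs3 was -0.36 ± 0.68 (limma, adjusted p = 0.896). Its other kept probe sets had 0.48 ± 0.64 and -0.17 ± 0.49, so their signs differed. Il1rn, the interleukin 1 receptor antagonist, had by its brightest probe set 329, 973 and 699 in knockout livers, against 571, 1089 and 475 in wild-type livers. By that probe set Il1rn followed the order of Saa1 in knockout and not in wild type. A dimmer one also followed it in knockout, at 431, 606 and 506. Another, at 563, 293 and 810, did not. Fgl1, a fibrinogen-like liver protein, read 11634, 26392 and 9653 in knockout livers, against 22540, 14507 and 24343 in wild-type livers. These 3 genes were picked after their values were seen.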
